A study of Mus musculus with 2 samples.

Results

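The 4 mouse genes Mir671, Mir7b, Mir7-2 and Mir7-1 encode miR-671 and the forms of miR-7. They were taken from the deposited tables by their Ensembl identifiers, matched to GENCODE M21 symbols, and are 4 of 2202 measured miRNA genes. All 4 were found and all 4 passed detection in both libraries, set at 2 CPM, where CPM is a gene's count per 1000000 counts at miRNA genes. The libraries are microRNA-seq of RNA below 30 nucleotides from left cerebral cortex. The mice were 2-month-old B6CASTF1/J females, a hybrid of a C57BL strain and CAST. There is 1 library for each of 2 animals and a single group, so no treatment, genotype, age or region was compared. The labels number the animals separately and both carry the same donor identifier, and the spread between them joins animal and library preparation. They are called animal 1 and animal 2, after the replicate numbers.

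miRNAs guide Argonaute proteins to messenger RNAs, mostly through the seed, bases 2 to 8 of the mature strand. miR-7 is a conserved miRNA of neurons and neuroendocrine cells. In the brain it belongs to a circuit of noncoding RNAs. Cdr1as, a circular RNA transcribed opposite the Cdr1 gene, carries many miR-7 sites and is cut at a site for miR-671, and the long noncoding RNA Cyrano has an extensively paired miR-7 site that leads to the destruction of miR-7.

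The mature sequences are shown because they decide which reads can be told apart and which targets the members share. They are credited to RefSeq on GRCm38.p6, which held all 4 genes, and its hairpins were identical to those of GENCODE M21 for 4 of 4 genes. Capitals mark the seed.
miR-7a-5p, from Mir7-1 and from Mir7-2: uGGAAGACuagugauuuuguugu
miR-7b-5p, from Mir7b: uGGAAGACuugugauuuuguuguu
miR-671-5p, from Mir671: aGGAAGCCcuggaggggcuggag
miR-7a-1-3p, from Mir7-1: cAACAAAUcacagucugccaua
miR-7a-2-3p, from Mir7-2: cAACAAGUcccagucugccaca
miR-7b-3p, from Mir7b: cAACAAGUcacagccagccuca
miR-671-3p, from Mir671: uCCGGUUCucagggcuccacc

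The 5p strands of all 3 miR-7 genes have the seed GGAAGAC, and no other mature miRNA in the RefSeq table has it. With positions counted from 1 at the 5′ end, miR-7a-5p and miR-7b-5p were identical at 22 of 23 bases and differed by A10U, outside the seed. The 3p strands were less alike. miR-7a-1-3p and miR-7a-2-3p were identical at 19 of 22 bases and differed by A7G, A10C and U21C. The substitution A7G lies in the seed, so that miR-7a-2-3p and miR-7b-3p share the seed AACAAGU and miR-7a-1-3p has AACAAAU. Over its first 8 bases miR-671-5p differed from miR-7a-5p by U1A and A7C, which leaves the seeds 1 base apart. No other mature miRNA in the table has either miR-671 seed.

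Both copies of miR-7a give the same 23-base 5p strand, and their hairpins share an identical stretch of 24 bases. A read of miR-7a-5p therefore matches both places equally. The longest stretch that Mir7b shared with another measured hairpin was 14 bases, with Mir7-1 and with Mir7-2, and that of Mir671 was 12 bases. The deposited tables set aside multi-mapping reads in an entry of their own and do not say which arm a counted read came from. Counts at Mir7-1 and Mir7-2 are thus uncertain as levels of miR-7a. Mir7b and Mir671 share no stretch as long as a mature strand with another measured hairpin. The rest of the genome was not searched for such stretches.

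The genes lie on separate chromosomes (mm10, GENCODE M21). Mir671 (ENSMUSG00000076387.1, chr5:24592114-24592211, plus strand) overlaps a coding exon of Chpf2, a gene of chondroitin synthesis, on the same strand. It lies opposite an exon of a retained-intron transcript of Smarcd3, a chromatin remodelling subunit. Mir7-1 (ENSMUSG00000065434.1, chr13:58392779-58392886, minus strand) lies in an intron of Hnrnpk, which encodes an RNA-binding protein, on the same strand. Mir7b (ENSMUSG00000065491.1, chr17:56242988-56243098, plus strand) and Mir7-2 (ENSMUSG00000065609.1, chr7:78888277-78888373, plus strand) overlap no other annotated gene. The nearest gene to Mir7b is the lincRNA AC026385.1, 183 bases away on the same strand, and the nearest to Mir7-2 is Aen, a nuclease gene, 7481 bases away on the same strand.

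Counts at miRNA genes summed to 4415759 in animal 1 and 2279562 in animal 2, and levels are CPM of these sums. Of all genes, 415 (18.8%) were detected in both animals. As a check on the tissue label, 8 of 12 genes of a neuron list were detected, led by Mir132 at 51982 ± 39023 CPM (SD, n = 2) and Mir128-1 at 12905 ± 4609 CPM. Its median level in animal 1 was 1507 CPM and in animal 2 was 1006 CPM, against 0 over all genes in each. Its sum was the higher in animal 2, at 55604 CPM in animal 1 and at 102181 CPM in animal 2. Mir132, at 24389 and 79576 CPM, carried that difference. Mir128-1, at 16164 and 9645 CPM, was higher in animal 1, as were most of the list's other detected genes. Its undetected genes were Mir9-2, with 10 and 4 counts, and the 3 copies of Mir124a, a defining neuronal miRNA, with at most 11 counts in a library. Since multi-mapping reads are set aside, these counts cannot be read as levels of miR-9 or miR-124. How many reads of such copied genes are in the multi-mapping entry was not tested. A list of neuroendocrine and epithelial miRNAs, which mark cells other than those of cortex, had 5 of 6 genes detected and a summed level of 396 and 359 CPM. Mir375, a miRNA of pancreatic islet and pituitary cells, led it at 254 ± 45.3 CPM. All 3 erythroid genes, markers of residual blood, were detected, and they summed to 459 CPM in animal 1, and to 91.2 CPM in animal 2. Mir451a, at 385 and 43.9 CPM, carried most of that difference, while Mir486 had 33.5 and 38.2 CPM. The part of such cells in the members' levels was not tested.

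Mir671 had the highest level of the 4 genes. It had 8798 counts in animal 1 and 3399 in animal 2. Its level was 1992 CPM in animal 1, where the exact Clopper-Pearson 95% interval ran from 1951 to 2034. In animal 2 it was 1491 CPM (1441 to 1542). Its mean was 1742 ± 354 CPM (SD, n = 2), and it ranked 65th of all genes in animal 1 and 84th in animal 2. The intervals do not overlap, and animal 1 was the higher. The tables hold no molecular identifiers, so these intervals describe counting error and not copies made by PCR. In tissue RNA, fewer cells of a type and less RNA per cell cannot be told apart.

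Mir7b, the source of the miR-7 form with its own 5p sequence, came next, with an SD of 9.56% of its mean, against 20.4% for Mir671. It had 4810 and 2843 counts. The level in animal 1 was 1089 CPM (interval 1059 to 1120), and that in animal 2 was 1247 CPM (1202 to 1294). The mean was 1168 ± 112 CPM (SD, n = 2), with ranks 89 and 93. Here animal 2 was the higher, again with intervals apart.

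The genes of miR-7a had far fewer counted reads. Mir7-2 had 459 counts in animal 1 and 198 in animal 2, which is 104 CPM (94.7 to 114) and 86.9 CPM (75.2 to 99.8). Mir7-1 had 147 and 106 counts, which is 33.3 CPM (28.1 to 39.1) and 46.5 CPM (38.1 to 56.2). Means were 95.4 ± 12.1 CPM for Mir7-2 and 39.9 ± 9.34 CPM for Mir7-1 (SD, n = 2 each). The single-library intervals of the animals overlap for both genes.

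**Figure D1:**
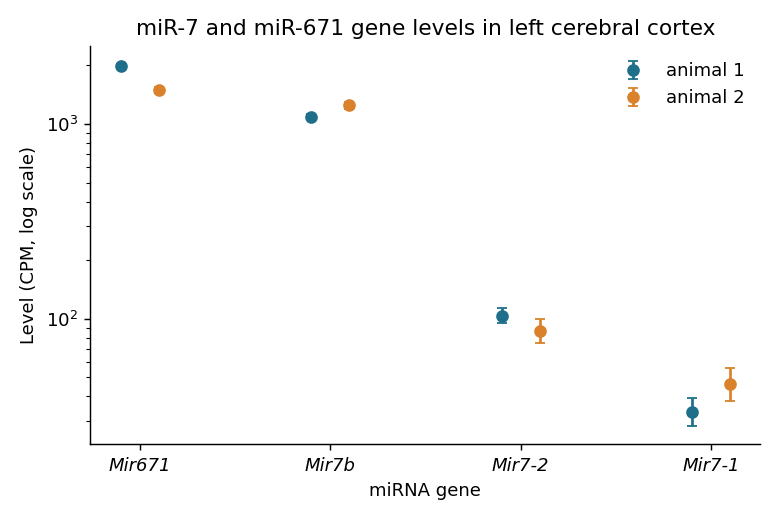
Level of each gene in CPM on a log axis, for animal 1 (blue) and animal 2 (orange); points are single libraries and bars are exact 95% counting intervals. The order Mir671, Mir7b, Mir7-2, Mir7-1 is the same in both animals, and the lowest value of Mir7b, 1089 CPM, sits far above the highest of Mir7-2, 104 CPM.

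The order of the 4 levels was the same in both animals, and no gene's values overlapped those of its neighbour in the order. The step from Mir671 to Mir7b was small and uneven. Mir671 was 1.83-fold higher in animal 1 and 1.20-fold higher in animal 2, a log2 difference of 0.56 ± 0.43 (SD, n = 2). The step from Mir7b to Mir7-2 was the largest, at 10.5-fold and 14.4-fold, or 3.62 ± 0.32 in log2. Mir7-2 was 3.12-fold above Mir7-1 in animal 1 and 1.87-fold above it in animal 2, or 1.27 ± 0.52 in log2. A miRNA read spans its mature strand, so CPM was not divided by length. Per base of hairpin the order was the same, from 20.3 CPM per base for Mir671 to 0.308 for Mir7-1 in animal 1 and from 15.2 to 0.431 in animal 2.

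The 3 miR-7 genes summed to 1227 CPM in animal 1 and to 1381 CPM in animal 2, a mean of 1304 ± 109 CPM (SD, n = 2). In animal 1 Mir7b held 88.8% of these counts, with an exact interval of 87.9 to 89.6%, and in animal 2 it held 90.3% (89.3 to 91.4%). Mir7-2 held 8.47% (7.75 to 9.25%) and 6.29% (5.47 to 7.20%), and Mir7-1 held 2.71% (2.30 to 3.18%) and 3.37% (2.77 to 4.06%). The intervals of the animals overlap for Mir7b and Mir7-1 and are apart for Mir7-2. These are shares of counted reads, and the tables cannot show how many miR-7a reads went to the multi-mapping entry.

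**Figure D2:**
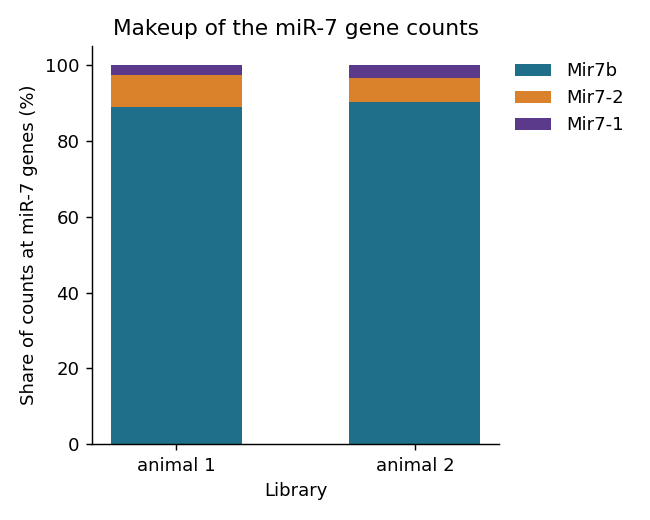
Share of the counts at the 3 miR-7 genes, in percent, held by Mir7b (blue), Mir7-2 (orange) and Mir7-1 (purple) in each library. Mir7b fills 88.8% of the bar of animal 1 and 90.3% of that of animal 2.

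Among detected genes that share 22 bases or more with another hairpin, as Mir7-1 and Mir7-2 do, the median of mean levels was 88.4 CPM (69 genes). It was 86.0 CPM among the 346 that share none, as Mir7b and Mir671 do. Both classes hold only genes that passed 2 CPM. A gene that lost most of its reads to the multi-mapping entry would be missing from them. The medians therefore cannot show whether sharing a stretch lowers counts. Mir7-2 and Mir7-1 stood in the middle and lower part of the first class, with 33 and 43 genes above them. Mir671 and Mir7b stood in the upper part of the second, with 64 and 82 genes above them.

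Mir671 was higher in animal 1, and the sum of the miR-7 genes in animal 2. The log2 ratio of animal 1 over animal 2 was -0.17 for that sum (counting interval -0.23 to -0.11), 0.42 for Mir671 (counting interval 0.36 to 0.48) and -0.20 for Mir7b (-0.26 to -0.13). It was 0.26 for Mir7-2 (0.02 to 0.51) and -0.48 for Mir7-1 (-0.85 to -0.11). A gene was called outside counting error where the exact interval of animal 1's share of both counts left out the share set by the library totals. All 4 genes were outside, as were 56.6% of the 415 detected genes. Mir671 and Mir7-2 were higher in animal 1, as 27.0% of detected genes were, and Mir7b and Mir7-1 were higher in animal 2, as 29.6% were. These calls compare a pair of libraries, so they carry no p-value. The call weighs both counts in 1 interval, which is why Mir7-2 and Mir7-1 pass it although their single-library intervals overlap, and the interval of Mir7-2 starts close to 0.

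The sizes of these ratios lay near the middle of the series. The median absolute log2 ratio of detected genes was 0.34. A larger absolute ratio was found in 37.8% of them for Mir7-1, 42.7% for Mir671, 60.5% for Mir7-2 and 69.6% for Mir7b. Among other detected genes with a mean level of 50 to 200% of the member's, 85.2% were outside counting error near Mir671 (54 genes) and 87.3% near Mir7b (55 genes). The shares were 67.7% near Mir7-2 (65 genes) and 48.4% near Mir7-1 (64 genes). The counting interval was narrowest for Mir671, with the most counts, and widest for Mir7-1, with the fewest.

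**Figure D3:**
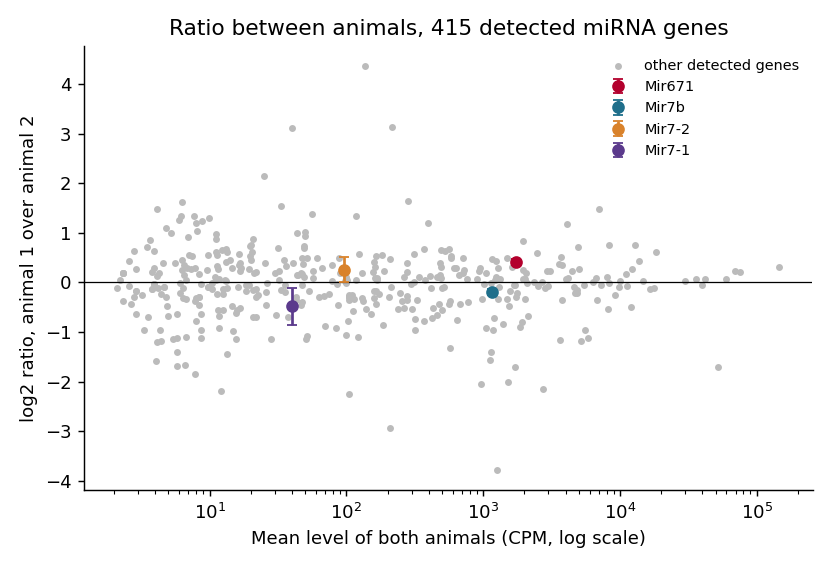
Log2 ratio of animal 1 over animal 2 against the mean level in CPM on a log axis, for the 4 named genes with exact 95% counting intervals and for the other detected genes (grey). Mir671 at 0.42 and Mir7-2 at 0.26 lie above the line at 0, Mir7b at -0.20 and Mir7-1 at -0.48 lie below it, and all 4 are inside the cloud of other genes.

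The copies of miR-7a differed between the animals in opposite directions. In animal 1 Mir7-2 made up 75.7% of the pair's counts, with an exact interval of 72.1 to 79.1%, and in animal 2 it made up 65.1% (59.5 to 70.5%). Their sum, formed after the values were seen, was 137 CPM for animal 1 and 133 CPM for animal 2, with a log2 ratio of 0.04 (-0.16 to 0.24), inside counting error. Mir671 held 61.9% of the counts of all 4 genes in animal 1 (61.1 to 62.7%) and 51.9% in animal 2 (50.7 to 53.1%).

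Strand made no difference to these genes. The opposite-strand counts were 0 for all 4 in both animals, and the unstranded counts equalled those on the read strand. This includes Mir671, which lies opposite an annotated Smarcd3 exon. Strand cannot set reads of miR-671 apart from fragments of Chpf2, whose exon is on the same strand.

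By distance over log2(CPM + 1) of both libraries, the genes nearest Mir671 were Mir543 at 0.14, Mir346 at 0.28 and Mir337 at 0.31. Nearest Mir7b were Mir431 at 0.14, Mir1839 at 0.19 and Mir434 at 0.21. Those nearest Mir7-2 were Mir20a, Mir325 and Mir186, at 0.12 to 0.18, and those nearest Mir7-1 were Mir1188, Mir374b and Mir3068, at 0.18 to 0.23. With 2 libraries this measure says no more than that levels and ratios were alike.

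The reference sequence was searched for the sites through which the circuit is known to act. The libraries hold no RNA of such length, so the levels of Cdr1as, Cdr1 and Cyrano were not measured. GENCODE M21 annotates an exon of 2927 bases at chrX:61183248-61186174, plus strand, in the lincRNA C230004F18Rik. RefSeq gives that symbol and Cdr1as as synonyms of Cdr1os, and the exon is called the Cdr1as exon here. The exon lies opposite Cdr1, which is annotated on the minus strand at chrX:61184005-61185558. On its plus strand the exon had 123 matches to the miR-7 seed, spelled GTCTTCC, and on the minus strand it had 0. Of these, 34 were followed by an A. No other gene's transcript in GENCODE M21 had more than 11. Among 6604 other genes with a transcript within 10% of the exon's length, 25.7% had at least 1 match and the highest count was 4.

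The miR-7 matches ran from base 26 to base 2851 of the exon, at a median spacing of 18 bases and at most 109 apart. They are not independent sequences, since the exon is repetitive. The match to the miR-671-5p seed, GGCTTCC, occurred once, at base 2797, after 121 of the miR-7 matches. Of the genes of like length, 31.0% had at least 1 match to GGCTTCC. A match is a description of letters and does not show binding.

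**Figure D4:**
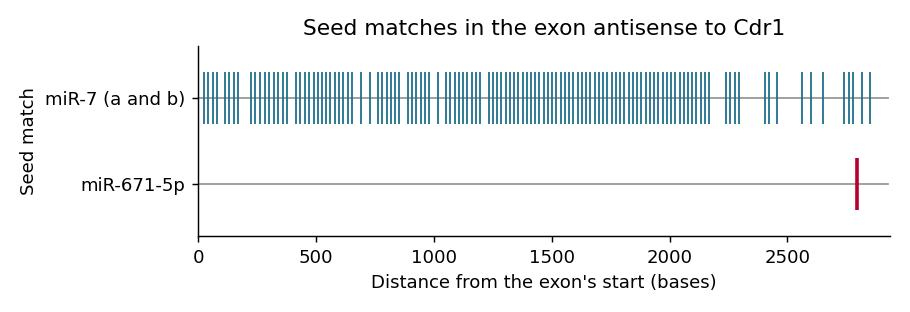
Positions of seed matches in the exon antisense to Cdr1, in bases from its start, for miR-7 (upper line, blue) and miR-671-5p (lower line, red); each mark is 1 match. The 123 miR-7 matches cover the exon and the single miR-671-5p match lies near its end, at base 2797.

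Pairing beyond the seed set the sites apart, and the best site of each kind is shown for that. Every seed match in the GENCODE M21 transcripts was extended along the miRNA, with Watson-Crick pairs only and at most 1 bulge of up to 3 target bases. Capitals mark bases that pair with the miRNA, and sequences are 5′ to 3′ on the plus strand from GENCODE M21 transcripts.
Cdr1as exon with miR-671-5p, chrX:61186028-61186051: CTtCCAGCatCTCCAGGGCTTCCa
Cdr1as exon with miR-7a-5p, chrX:61183685-61183708: cCAgaAAAATatCcAgGTCTTCCA
Cyrano with miR-7a-5p, chr2:119602137-119602161: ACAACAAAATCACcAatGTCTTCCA
Cyrano with miR-7b-5p, chr2:119602136-119602161: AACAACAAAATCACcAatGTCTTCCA

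The miR-671-5p site of the exon paired with 20 of 23 bases. Of 10854 genes with a match to that seed, 16 had a site with as many pairs or more, this one included. The miR-7 sites of the exon had fewer pairs. Over the 123 sites the median was 14 paired bases for miR-7a-5p, of 23, and 15 for miR-7b-5p, of 24, with a maximum of 17 for each. Other genes also reached that maximum. Among 9776 genes with a miR-7 seed match, 327 (3.34%) had as many pairs or more for miR-7a-5p, this gene included. For miR-7b-5p there were 589 (6.02%), again with this gene. The exon's value is the best of 123 sites, while no other gene's transcript had more than 11 matches, so the chances were unlike.

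Cyrano, annotated as 1700020I14Rik in GENCODE M21 and matched through its RefSeq synonym, had 2 miR-7 seed matches. At the better of these, 22 of 23 bases of miR-7a-5p and 23 of 24 bases of miR-7b-5p were paired across a bulge of 2 target bases. Of 9776 genes with a miR-7 seed match, it was the only gene with that many pairs for either form. The single unpaired base of either strand was at position 10, where the forms differ by A10U, and miR-7b-5p gained its extra pair through its longer 3′ end.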

How the data were processed

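The authors deposited raw read counts per miRNA gene, 1 table per library, in unstranded, read-strand and opposite-strand columns whose roles were read from the values. The deposited text metadata name the build mm10 and GENCODE M21. The aligner and the read filters were not given in the sources used here. The read-strand count was scaled to CPM over all gene entries, with the 4 summary entries left out. All 2202 identifiers matched GENCODE M21. Totals were 4415759 and 2279562 counts, so 2 CPM is 8.83 counts in animal 1 and 4.56 in animal 2.

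Exact Clopper-Pearson 95% intervals came from scipy 1.17.1. A single group allows no contrast, so there are no p-values. The counting-error call was tested on simulated data, with set fold changes in some genes and counting error as the only noise. That test cannot show how the call behaves under PCR copies or differences between library preparations. TMM factors came from edgeR 4.0.16 and size factors from DESeq2 1.42.0 as alternatives, besides the unstranded column, pseudocounts, detection thresholds, leaving out the most abundant gene and leaving out each library.

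Genes named are the 4 members, the 3 detected genes nearest each, hosts and neighbours, and leading list genes. Mir9-2, the Mir124a copies, Mir200b and the noncoding RNAs of the circuit were named in addition. The members and lists were chosen with earlier results of these data known. Mature and hairpin sequences came from RefSeq on GRCm38.p6 and sites from GENCODE M21 transcripts.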

Additional observations from a re-analysis of the deposited data

Results flagged for a closer look

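The multi-mapping entry held 48.9% of the mapped reads of animal 1 and 48.2% of those of animal 2, a signal outside the counts used here. The miR-7a-5p strand is identical in Mir7-1 and Mir7-2, and how many of its reads are in that entry was not tested.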

How the results depend on the processing

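TMM, DESeq2 size factors, unstranded counts and a library total without the most abundant gene kept the direction and the call of all 4 ratios between animals. Pseudocounts of 0.1 and 5 kept the direction, and no call was made for them. Leaving the most abundant gene out of the library total raised Mir7b to 1367 CPM, Mir7-2 to 112 CPM and the miR-7 sum to 1526 CPM, by construction, and these were beyond the spread of the animals. Mir671 and Mir7-1 rose under it within that spread. TMM, DESeq2 and the unstranded column moved every level by less than the SD. Without either library the miR-7 sum ran from 1227 to 1381 CPM. Genes outside counting error were 235 of 415 (56.6%), with 112 higher in animal 1 and 123 in animal 2. They were 207 of 307 (67.4%) at 10 CPM, 216 of 389 (55.5%) with unstranded counts and 256 of 746 (34.3%) with at least 1 count in either library, a set that goes beyond the detected genes. The split turned to 123 and 116 with TMM and to 129 and 108 without the most abundant gene, and was 116 and 121 with DESeq2 size factors. No paired analysis was possible because there is a single group. With 2 libraries, the SDs themselves are imprecise. Depth limits Mir7-1 most, with 147 and 106 counts.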
